A study of Mus musculus with 14 samples.

Results

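Degradome-seq maps the 5′ ends of RNA fragments that carry a 5′ phosphate, and a genomic position at which such ends stack up is called a pile-up site. The libraries were made from RNA selected for polyA tails, so that the level at a site is that of captured fragments and not of the whole RNA. The sites described here are those for which the deposited tables name no gene. In both tables the gene field of these sites holds only the placeholder "genome", which was read as no gene name, since no field was empty. They made up 3144 of the 3919 pile-up sites of the Drosha table (80.2%) and 3821 of the 4666 sites of the Dicer table (81.9%). Of these, 2104 were in both tables, which together held 4861 different sites without a gene name among 5990 sites.

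The libraries came from mouse embryonic stem cells (ESCs) grown on feeder cells. In the Drosha line, Drosha fl/fl CreER cells were either left untreated (control, 2 libraries) or treated with 100 nM 4-hydroxytamoxifen (4-OHT) for 72 h and collected 48 h after its removal (Drosha-deficient, 2 libraries), so that the effect of the drug and that of the deletion cannot be told apart. In the Dicer line, Dicer fl/fl cells were infected with a retrovirus carrying GFP (control, 2 libraries) or Cre with GFP (Dicer-deficient, 2 libraries), sorted on day 3 and grown for 2 more days. The libraries of a group are described as independent, but the sources used here do not state whether they came from separate cultures, so that p-values measure only the spread between these libraries. Sites entered each table because a classifier trained on miRNA sites found a pile-up in both control libraries, which selects on the control values; the part of that selection in the decreases below was not tested.

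Drosha is the nuclear RNase III that cuts primary miRNAs as part of the Microprocessor complex, and Dicer is the cytoplasmic RNase III that cuts the resulting stem-loops; both leave a 5′ phosphate. Fragments with a 5′ phosphate also arise from other endonucleases, from exonucleolytic trimming of small nucleolar RNAs (snoRNAs) out of introns, and from decay of mRNAs and ribosomal RNAs. B1 and B2 are short interspersed elements (SINEs) of the mouse genome, present in very many copies, which RNA polymerase III can transcribe and which also lie within introns and untranslated regions of ordinary genes.

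The sites without a gene name fell into a few classes that could be read from the reference genome (GRCm38) and the GENCODE annotation. The classes and the letters that define them were chosen after the values had been seen, and serve as a description. The first class lay opposite a coding-gene exon, that is on the other strand (antisense sites, 1330 in the Drosha table and 797 in the Dicer table). At 77.3% of the antisense sites of the Drosha table, at least the last 3 bases before the site were those at the 3′ end of the RNA linker that was ligated to the RNA; 100 bases further upstream 2.03% of them had such a match. The linker and 5 antisense sites are printed here because this shared feature is visible in them, though the Psmc3 site has only 2 matching bases. Each site is given with 15 bases before it and 15 from the site on, and capitals mark the bases directly before the site that match the linker end (in the linker, its last 10 bases).

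RNA linker: cacgacgcuCUUCCGAUCU
Psmc3 antisense, chr2:91054642-91054671, minus strand: gccaggagcccacCTtgatctcgctgtcta
Sf3a3 antisense, chr4:124728141-124728170, minus strand: cgctctcgctGATCTgctcctcctcctcct
Eif3a antisense, chr19:60762199-60762228, plus strand: tctctttctCGATCTcttgaaagagctggg
Supt16 antisense, chr14:52182228-52182257, plus strand: tgaacacTCCGATCTtcttgccgctcttgc
Mns1 antisense, chr9:72446257-72446286, minus strand: ccttctccaCGATCTgggctgctctctctt

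The next 2 classes shared their first bases. The letters TGGTGGCGC stood within the first 40 bases of 405 of the 3142 Drosha-table members with a full window (12.9%), at positions 8 to 14 from the site in 401 of them, and in none of the windows of the same length 100 bases upstream. The letters GATGGCTCA were found at 551 members (17.5%), at positions 8 to 14 in 546, and in 1 window upstream. On the opposite strand of the members' windows each was found at 0. With 1 mismatch allowed the shares were 20.8% and 22.5% of members against 0.509% and 0.605% of the upstream windows, and 3.35% and 1.81% of the 775 sites with a gene name. Of the members, 35 held both with at most 1 mismatch and were put with the first. These letters stand near the 5′ ends of the mouse B1 and B2 consensus sequences, and sites that hold them with at most 1 mismatch are called B1-type starts (653 and 1154 sites in the Drosha and Dicer tables) and B2-type starts (670 and 1234). No repeat annotation was used, but the reference genome masks most of the first 30 bases as repeat at 98.2% of the B1-type and 99.7% of the B2-type starts of the Drosha table. The 2 sets of 30 bases shared by the most B2-type starts, and the site of each type with the largest increase, are printed from the site on to show how closely the starts coincide; capitals mark the 9 letters.

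B1-type, largest increase, chr7:29918398-29918427, plus strand: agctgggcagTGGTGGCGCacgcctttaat
B2-type, shared by 60 sites of the Drosha table, here chr1:13377433-13377462, plus strand: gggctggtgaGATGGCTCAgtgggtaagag
B2-type, shared by 35 sites, here chr1:34002853-34002882, minus strand: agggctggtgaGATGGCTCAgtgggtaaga
B2-type, largest increase, chr2:29973497-29973526, minus strand: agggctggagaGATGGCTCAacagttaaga

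The remaining members were other repeat-masked sites (94 and 170), sites at an annotated small RNA gene (52 and 49) and other sites (345 and 417). Among these were the deepest of all members, and 4 are printed because their letters identify the RNA they belong to. The first is a nuclear copy of mitochondrial sequence whose first base matches the first base of mt-Atp8 on the mitochondrial genome, the second reads as the 5′ end of 18S ribosomal RNA, and the others begin at the first base of the snoRNA gene Snord49a and of Rn7s1, a gene of the 7SL RNA of the signal recognition particle.

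mt-Atp8 copy, chr1:24614783-24614812, minus strand: atgccacaactagatacatcaacatgattt
18S rRNA start, chr17:39846353-39846382, plus strand: tacctggttgatcctgccagtagcatatgc
Snord49a, chr11:62603450-62603479, plus strand: tgctgtgatgagatgactaagtaggaagtg
Rn7s1, chr12:69159295-69159324, plus strand: gccgggcgcggtggcgcacgcctgtagtcc

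The 4 Drosha-line libraries held between 28682300 and 31000283 mapped reads and the 4 Dicer-line libraries between 29598724 and 34547609, so that 3 reads, the limit that a count of 0 allows, corresponded to between 0.0868 and 0.105 RPM (reads at a site scaled to the mapped reads of the library); such limits cover counting error only. The members took 9.31% and 8.74% of mapped reads in the Drosha controls, 6.58% and 6.36% in the Drosha-deficient libraries, 24.6% and 25% in the Dicer controls and 19.3% and 19.9% in the Dicer-deficient libraries. Reads that mapped to several places were 37.6% and 41.8% of mapped reads in the Drosha controls against 26.9% and 28.7% in the Drosha-deficient libraries. In the Dicer line they were 38.4% and 38.8% in the controls against 31.7% and 33.5% after Dicer loss. How such reads were counted is not given in the sources used here, and the part of these shifts in the results below was not tested. As a check of the labels, the 11 sites at the Mir290 to Mir295 genes, the main miRNA cluster of mouse ESCs, summed to 1954 and 1705 RPM in the Drosha controls but only 265 and 315 RPM after Drosha loss, and 10 of them were decreased. In the Dicer line 7 such sites summed to 2050 and 1359 RPM in the controls against 1832 and 1518 RPM after Dicer loss, and 0 passed the test. RNA-seq of the Drosha line gave mean log2 CPM values, a depth-normalised expression level, from 6.64 (Zfp42) to 9.78 (Pou5f1) for 6 stem cell genes and from 2.95 (Pdgfrb) to 6.60 (Col1a1) for 5 fibroblast genes, which feeder cells express.

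In Drosha-deficient against control ESCs, the sites without a gene name split by class. The antisense sites fell nearly throughout, the B1-type starts mostly rose, and the B2-type starts moved little as a group. As these are bulk samples, fewer cells of a type and less RNA per cell cannot be told apart. A site was called decreased or increased when its change of log2(RPM + 0.1) passed -1.5 or 1.5 with a false discovery rate (FDR) under 0.05 in limma, fitted over all 3919 sites. Of the 3144 members 1241 were decreased, or 39.5% against 37.6% of all sites, and 362 were increased, or 11.5% against 9.57% of all sites. Among the 775 sites with a gene name 232 were decreased and 13 increased. The median log2 fold change was -0.92 over the members and -0.93 over all sites; when each library was centred on its own median site, the median over all sites was -0.34, and 766 members were decreased and 562 increased. The size of each class is therefore also given relative to the median over all sites. Leaving out Drosha control replicate 1 brought the decreased members to 766, and edgeR on the whole reads behind the RPM called 1281 decreased and 369 increased.

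**Figure D1:**
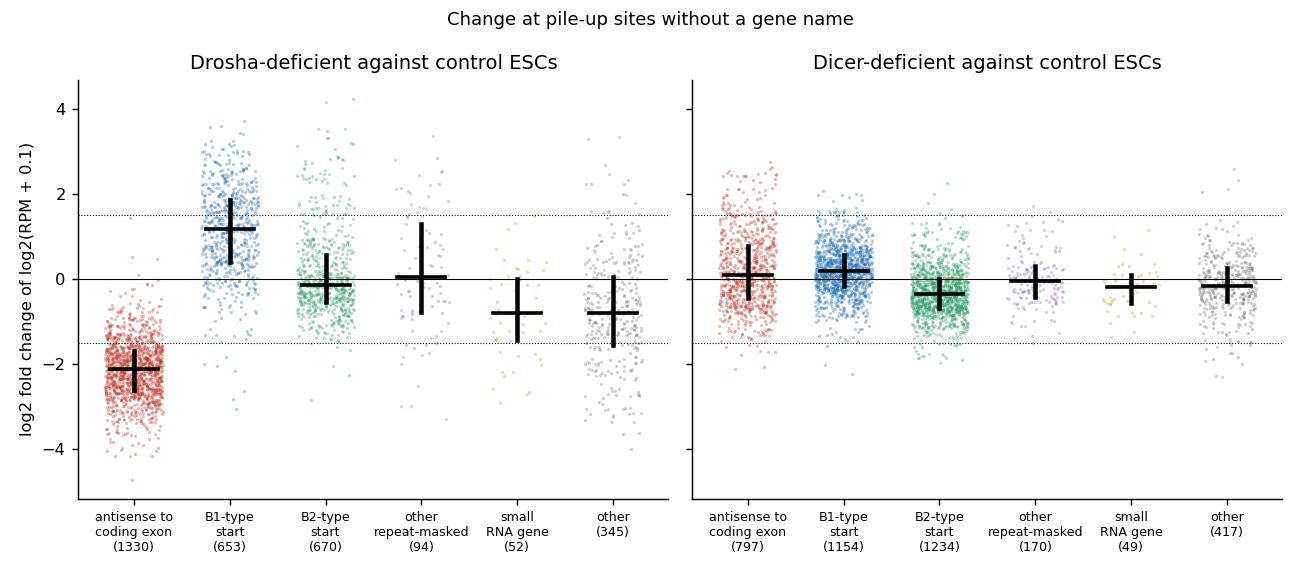
Each point is 1 pile-up site without a gene name, placed by its class and its log2 fold change (vertical axis) in Drosha-deficient (left) and Dicer-deficient (right) against control ESCs; bars give the median and the quartiles, dotted lines the thresholds of 1.5 and -1.5, and numbers in brackets the sites. In the Drosha panel the antisense sites sit around a median of -2.13 and the B1-type starts around 1.17, while in the Dicer panel all medians lie between -0.36 and 0.19.

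The antisense sites carried most of the decreases. Of the 1330 sites, 1114 were decreased and 0 increased, and the median log2 fold change was -2.13, with quartiles of -2.61 and -1.71, which is 1.20 below the median over all sites. In 1300 of them both Drosha-deficient libraries lay below both controls, a pattern seen at 59.9% of all sites of the table. Coding sequence lay opposite 1200 of them, with a median of -2.14, and an untranslated region opposite 123, with a median of -2.12. The linker-like sites (887 of 1028 decreased, median -2.17) and the 302 without such a match (227 decreased, median -2.02) had similar medians. Base by base, the linker's last base preceded 96.5% of the antisense sites, its next base 96.3%, and the following ones 80.7% and 61.2%. At the sites with a gene name the same distances gave 35.4%, 33.8%, 31.9% and 29.3%. Since nearly all antisense sites thus had the last base and the next, the split above mostly compared longer with shorter matches. It cannot show the part of the linker match in the decrease, which was not tested. Without Drosha control replicate 1, 684 antisense sites were past the threshold (median -1.99), and with a pseudocount of 1 RPM, which weighs down shallow sites, 424 were (median -1.21).

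**Figure D2:**
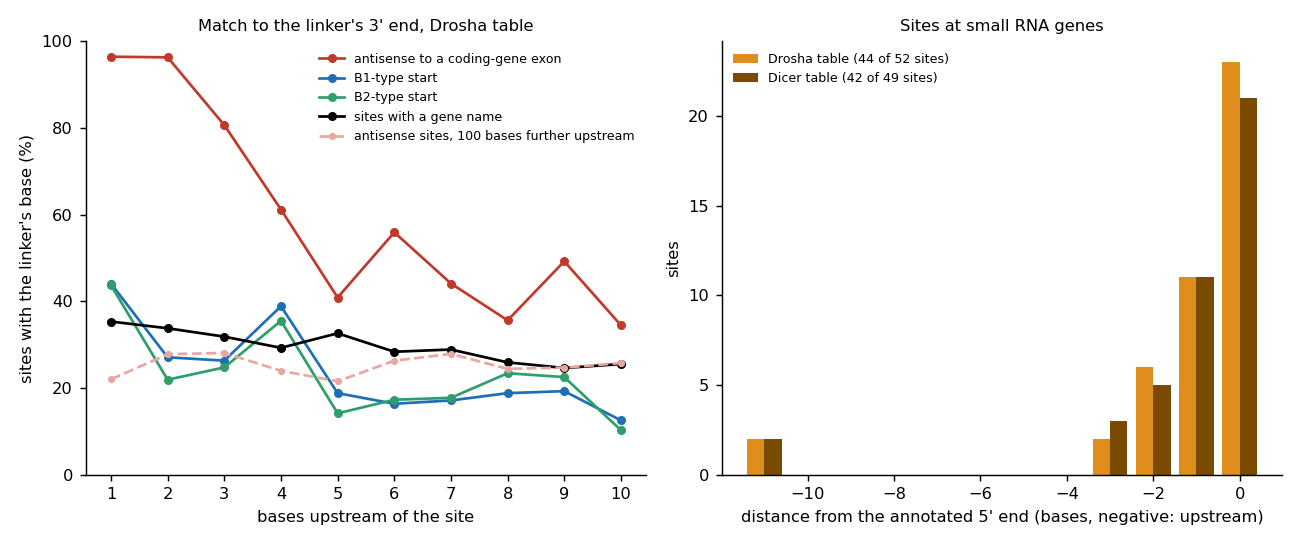
The left panel gives the percentage of Drosha-table sites (vertical axis) whose base at each distance upstream (horizontal axis) is that of the linker counted from its 3′ end, for 3 classes, for sites with a gene name and, dashed, for the antisense sites 100 bases further upstream; the antisense sites reach 96.5% at the last base before the site. The right panel counts sites at small RNA genes (vertical axis) by their distance from the annotated 5′ end (horizontal axis, bases, within 12 upstream and 6 downstream) in both tables, and most sit at the first base or just before it.

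The antisense site with the largest decrease lay opposite the coding sequence of Mns1, which encodes a structural protein of meiotic cells and cilia. It had 2.61 and 2.5 RPM in the controls and no read in either Drosha-deficient library, at least 25.4-fold lower against the limit of 3 reads per library (FDR = 1.4e-05). The site opposite Ing2, a reader of methylated histone H3, had 2.27 and 1.3 RPM in the controls and 0 in both deficient libraries (at least 17.7-fold lower, FDR = 5.07e-05). The site opposite Morc1, which silences transposons in the male germ line, had 2.20 and 1.33 RPM against 0 in both (at least 17.6-fold lower, FDR = 4.94e-05). These 3 were shallow, and the groups did not overlap at any of them.

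Among antisense sites with reads in all 4 libraries, the site opposite Apoe, an apolipoprotein, had 5.47 and 2.81 RPM in the controls and 0.194 and 0.0695 RPM in the deficient libraries (log2 fold change -4.17, SE 0.53, FDR = 1.67e-05). The site opposite Lin9, a subunit of the cell cycle complex DREAM, had 5.86 and 5.03 RPM against 0.581 and 0.0695 RPM. Both sites had control libraries well above both deficient libraries. Sites opposite Ppig, a nuclear cyclophilin, and Cab39, a scaffold of the kinase LKB1, changed by -4.13 (SE 0.51) and -4.06 (SE 0.56) on the same scale.

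The deepest antisense sites, picked after their values were seen, moved the same way. The site opposite Psmc3, an ATPase of the 26S proteasome, had 1322 and 1183 RPM in the controls and 167 and 160 RPM in the Drosha-deficient libraries (log2 fold change -2.93, SE 0.33, FDR = 9.92e-06). The site opposite Sf3a3, a splicing factor of the U2 snRNP, had 438 and 361 RPM against 45.8 and 71.6 RPM (-2.79, SE 0.34). The site opposite Eif3a, a subunit of translation initiation factor eIF3, had 324 and 244 RPM against 48.3 and 45.1 RPM. Eif3a also had the most antisense sites of any gene, 12, of which 11 were decreased and 11 were linker-like. Together its sites summed to 708 and 510 RPM in the controls and 91.8 and 89.3 RPM in the deficient libraries. Akap12, which encodes a scaffold of protein kinase A, had 10 sites with 9 decreased, and Eif3b had 7 with 5 decreased. The 1330 sites lay opposite 1003 genes, of which 769 had a single site and 13 had 5 or more. In the RNA-seq of the Drosha line 981 of these genes had a median mean log2 CPM of 6.82, against 2.34 over all 22376 genes. The part of this high expression in which genes were named was not tested. The first 30 bases were different at all 1330 sites, and at 1244 of them occurred once in the genome.

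In the B1-type class 249 of 653 starts were increased and 7 decreased, against 9.57% and 37.6% of all sites. These starts had a median log2 fold change of 1.17 (quartiles 0.40 and 1.86), which is 2.11 above the median over all sites. Both Drosha-deficient libraries lay above both controls at 475 of them, or 72.7%, against 21.2% of all sites. Their share of the RPM at all members was 8.15% and 7.10% in the controls and 35.4% and 27.5% in the deficient libraries. The fitted change was above 0 at 563 starts. Between genes 116 of 290 starts were increased (median 1.24), opposite introns 68 of 172 (median 1.24) and in introns on the same strand 61 of 174 (median 1.11). Medians on the plus and minus strands were 1.15 and 1.20. With each library centred the increased starts numbered 385. The first 30 bases of 12 B1-type starts were not mostly repeat-masked, and these 12 included all 7 decreased starts (median -1.92).

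Since reads of one SINE copy can map to another, the B1-type starts were also split by how often their first 30 bases occur in the genome. The 185 starts whose first 30 bases occur once had 69 increased and 7 decreased, with a median of 1.12. The 169 starts with 100 or more copies had 76 increased and a median of 1.39. Among the deepest starts of this class, 4 that share their first 30 bases had nearly the same values, 390 and 285 RPM in the controls and 1094 RPM in deficient replicate 2. These 4 may be 1 measurement, but the counts, medians and shares of RPM given here hold each of them separately. Over all members, 482 of the 3144 shared their first 30 bases with another member, and 19 had the RPM of another such site in all 4 libraries within 1%.

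The B1-type start with the largest change lay between genes, 1585 bases from Zfp383. It had 19.2 and 13.1 RPM in the controls and 250 and 177 RPM in the Drosha-deficient libraries (log2 fold change 3.72, SE 0.34, FDR = 3.66e-06). The start 2864 bases from Ipo8, an importin gene, had 2.41 and 1.95 RPM against 35.3 and 21.2 RPM (3.60, SE 0.37). The start in an intron of Xpr1, the phosphate exporter gene, on the opposite strand had 2.48 and 2.36 RPM against 36.7 and 24.8 RPM (3.59, SE 0.36). At each of these the deficient libraries were far above the controls. The deepest B1-type start, 16031 bases from Gm14262, had 764 and 817 RPM in the controls and 1217 and 1184 RPM in the deficient libraries, a change of 0.60 (SE 0.34) that did not pass the test (FDR = 0.134).

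Of the 670 B2-type starts 77 were increased, or 11.5%, close to the 9.57% of all sites, and 5 decreased, or 0.746% against 37.6% of all sites. Their median log2 fold change was -0.15, which became 0.45 when each library was centred and 0.10 without Drosha control replicate 1, and which is 0.79 above the median over all sites. Without Drosha control replicate 2 the increased starts numbered 44, and without Drosha-deficient replicate 1 they numbered 50. Both deficient libraries lay above both controls at 173 (25.8%, against 21.2% of all sites) and below them at 216 (32.2%, against 59.9%). The 60 starts that share the most frequent 30 bases, which occur 10162 times in the genome, had a median of -0.03, with 4 increased and 0 decreased. Although the class as a whole moved little, 5 of its starts were among the 8 members with the largest increases.

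The largest increase of any member was at a B2-type start in an intron of Sptan1, the gene of an α-spectrin, on the opposite strand. It had 3.87 and 2.39 RPM in the controls and 88.2 and 40.2 RPM in the Drosha-deficient libraries (log2 fold change 4.25, SE 0.40, FDR = 3.84e-06). The next lay opposite an intron of Kansl2, a subunit gene of a histone acetyltransferase complex, with 1.57 and 0.753 RPM against 31.7 and 14.2 RPM (4.16, SE 0.44). Starts 4341 bases from Hmgb1, 4478 bases from Hesx1 and 5880 bases from Gm48248 rose by 3.54, 3.54 and 3.50 on the same scale. The start near Hmgb1 had 1.57 and 1.95 RPM in the controls and 38.5 and 11.9 RPM in the deficient libraries, which differed widely but both lay above both controls.

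The deepest B2-type start, 4882 bases from Ndufaf6, went the other way. It had 806 and 545 RPM in the controls and 290 and 322 RPM in the deficient libraries, a change of -1.12 (SE 0.34, FDR = 0.00906) that is under the threshold of size. The site 1 base away had 323 and 308 RPM against 93.3 and 116 RPM and was decreased (-1.60, SE 0.32), though not when each library was centred (-1.01) or without Drosha-deficient replicate 1 (-1.44). Neighbouring positions of this kind were few, with 34 of the 3144 members directly next to another member.

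Of the 94 other repeat-masked sites 20 were increased (21.3%, against 9.57% of all sites) and 12 decreased (12.8%, against 37.6% of all sites). Among the deepest, that 3272 bases from Gm17952 had 17.9 and 17.1 RPM in the controls and 92.5 and 72.9 RPM in the deficient libraries (2.23, SE 0.32, FDR = 3.5e-05). That 13124 bases from Nrf1 had 14.9 and 18 RPM in the controls against 56.8 and 78.9 RPM (2.02, SE 0.33). These sites were picked for their depth after the values were seen. The class holds masked sites left once the B1-type starts and the other classes were set apart, including any with more mismatches to the defining letters. Among sites of this class whose letters were read, several hold gcctttaa, as does the B1-type start printed above, and others do not. The rise is therefore not read as that of a separate kind of repeat, and the share of B1-like sites in it was not tested.

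Sites at small RNA genes mostly coincided with annotated 5′ ends. The Drosha table held 52 such sites, of which 41 were at snoRNA genes, 4 at miRNA genes, 3 at small Cajal body RNA (scaRNA) genes, 3 at other small RNA genes and 1 at a spliceosomal RNA gene. The annotated first base was the site in 23 of them, and the site lay 1 to 3 bases upstream in 19. The class had 12 decreased sites, or 23.1% against 37.6% of all sites, 0 increased sites and a median log2 fold change of -0.80, which is 0.13 above the median over all sites; with each library centred 7 were decreased and 3 increased. The first base of Snord49a, a snoRNA that guides 2′-O-methylation, had 1091 and 1214 RPM in the controls and 324 and 557 RPM in the deficient libraries (-1.44, SE 0.36, FDR = 0.00251). That site was just under the threshold of size. The site 2 bases before the small RNA gene Gm23300, in an intron of Cep55, had 273 and 289 RPM against 129 and 107 RPM (-1.25, SE 0.32). The first base of Rn7s1 had 231 and 129 RPM in the controls and 177 and 310 RPM in the deficient libraries, groups that overlap. The 4 sites at miRNA genes had a median of -2.24, with 3 decreased.

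Few sites held most of the reads. The 10 deepest members took 65.5% and 71.1% of the RPM at members in the Drosha controls and 51.4% and 60.0% in the deficient libraries. The mt-Atp8 copy had 31840 and 43533 RPM in the controls and 16591 and 23120 RPM in the Drosha-deficient libraries (log2 fold change -0.93, SE 0.47, FDR = 0.0929), close to the median over all sites. Its 30 bases occur 2 times in the reference genome, once on chromosome 1 and once on the mitochondrial genome at position 7766, and neither table listed a site on the mitochondrial genome. The 18S rRNA start had 15932 and 9169 RPM against 3918 and 4023 RPM (-1.61, SE 0.42, FDR = 0.00335), a call lost when each library was centred (-1.01), without Drosha control replicate 1 (-1.21) and without Drosha-deficient replicate 1 (FDR = 0.061). A site 16 bases from Gm26917, upstream of that rRNA site, had 5331 and 2879 RPM against 2491 and 2385 RPM (-0.68, SE 0.40). The site 22 bases upstream of the small RNA gene Gm24339, in an intron of Cep295, had 1523 and 1265 RPM against 1797 and 1978 RPM (0.44, SE 0.36, FDR = 0.292). Of these 4, only the rRNA site passed the test.

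**Figure D3:**
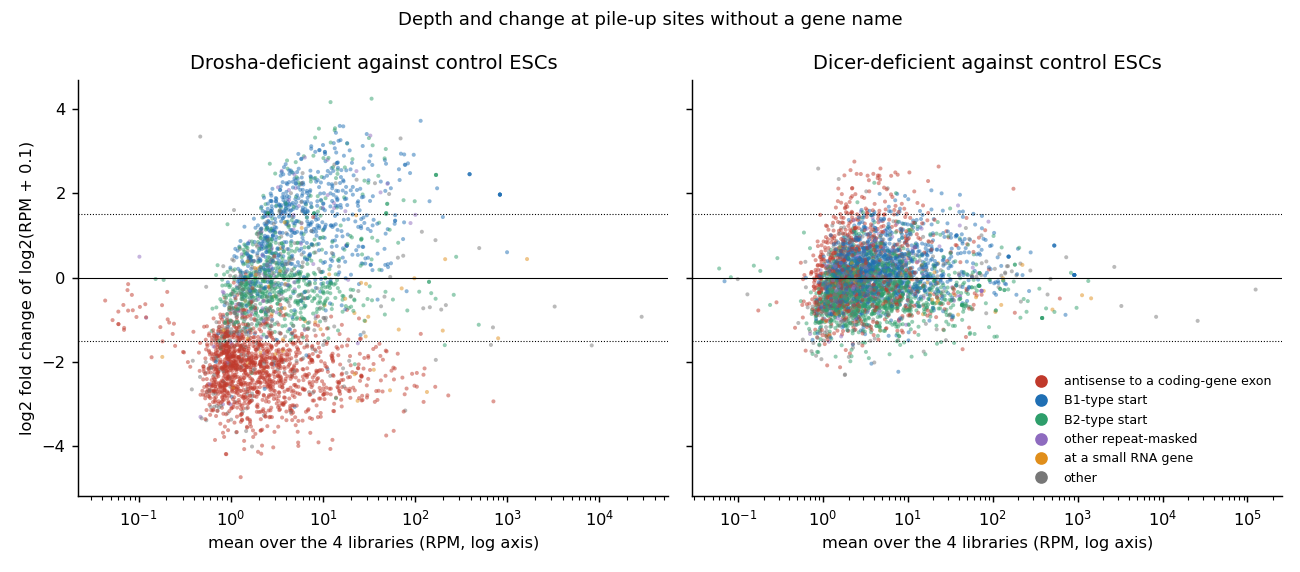
Each point is 1 pile-up site without a gene name, placed by its mean over the 4 libraries of its table (horizontal axis, RPM, log axis) and its log2 fold change (vertical axis), coloured by class; dotted lines give the thresholds of 1.5 and -1.5. In the Drosha panel the antisense sites sit around medians between -2.07 and -2.58 at all depths, whereas the B1-type medians go from -0.92 under 1 RPM (7 starts) and 0.52 at 1 to 3 RPM to 1.97 at 100 RPM or more.

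Depth separated the classes further. Over all sites 37.6% were decreased and 9.57% increased. Members with a mean under 1 RPM numbered 506, of which 343 were decreased and 1 increased (67.8% and 0.198%). Members from 3 to 10 RPM numbered 863, of which 253 were decreased and 172 increased (29.3% and 19.9%). Of the 53 members with 100 RPM or more 13 were decreased and 14 increased (24.5% and 26.4%). The antisense median went from -2.07 under 1 RPM to -2.58 at 100 RPM or more (9 sites). The B1-type median was -0.92 under 1 RPM (7 starts, of which 0 were increased), 0.52 at 1 to 3 RPM (181 starts), 1.40 at 3 to 10 RPM (259 starts), 1.60 at 10 to 100 RPM (193 starts) and 1.97 above that (13 starts). Since increased sites gain mean depth from the deficient libraries, the depth bands are not independent of the change.

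**Figure D4:**
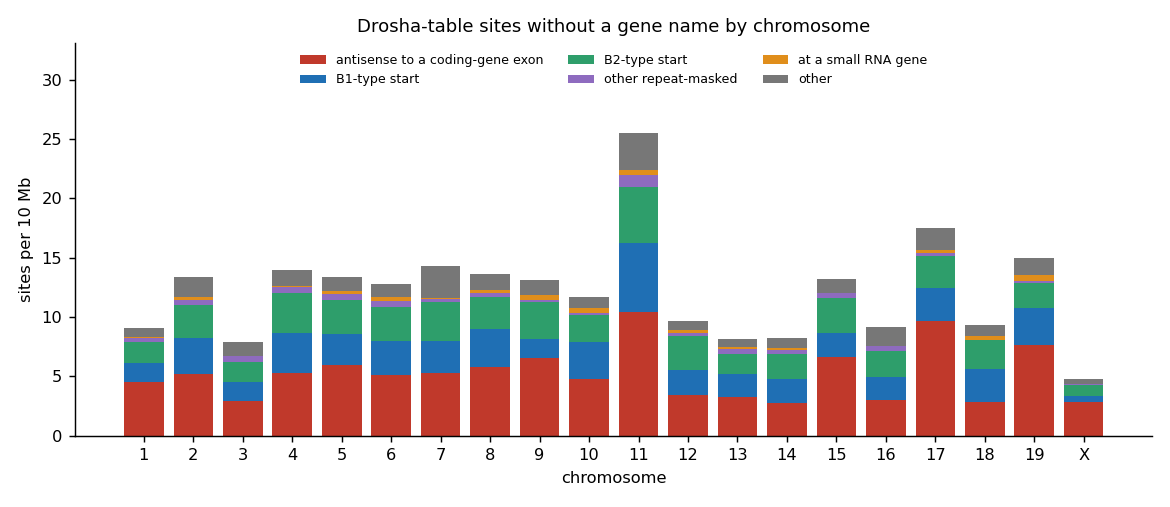
Stacked bars give the number of Drosha-table sites without a gene name per 10 Mb of each chromosome (vertical axis), coloured by class. Chromosome 11 stands out with 25.5 sites per 10 Mb and chromosome X is lowest with 4.79.

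Members were on all autosomes and on X, and the strands were even, with 1575 on the plus and 1569 on the minus strand in the Drosha table and 1908 and 1913 in the Dicer table. Decreased sites were 622 on the plus and 619 on the minus strand, and increased sites 177 and 185. Chromosome 11 held the most members, 311, or 25.5 per 10 Mb, followed per length by chromosome 17 (17.5) and chromosome 19 (15.0). The X chromosome held 82, or 4.79 per 10 Mb. Members were 83.6% of all pile-up sites on chromosome 11, 79.0% on 17, 73.6% on 19 and 78.1% on X. Over the whole table they were 80.2%, so that the uneven density was not particular to members. The percentage of members decreased ranged from 24.7% on chromosome 18 to 51.2% on X, against 37.6% of all sites. The percentage increased was lowest on chromosome 15, at 6.57%, and highest on chromosome 18, with 17 of 85, against 9.57% of all sites. The classes were mixed unevenly, with antisense sites 48 of 82 members on X and 26 of 85 on chromosome 18. A further 2 members lay on unplaced scaffolds and both were increased.

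In Dicer-deficient against control ESCs no member passed the test, which held no replicate term. With a replicate block some members were called, as given at the end, though no source ties same-numbered libraries. Without that block limma gave 0 decreased and 0 increased of 3821 (0.0% of all 4666 sites in either direction), with the smallest FDR at 0.465. In this fit 340 members had an unadjusted p under 0.05. The edgeR fit on the whole reads also called 0, with 346 members at an unadjusted p under 0.05. It took the mapped reads as library sizes. The study's own edgeR test, with a further scaling between libraries (TMM), reported sites lost after Dicer loss at the same thresholds. Without Dicer-deficient replicate 2, limma called 12 increased, all of them antisense sites. The median log2 fold change was -0.07 over the members and -0.12 over all sites. By class it was 0.09 for the antisense sites, 0.19 for the B1-type starts, -0.36 for the B2-type starts, -0.06 for the other repeat-masked sites, -0.20 at small RNA genes and -0.17 for the other sites. Both Dicer-deficient libraries lay above both controls at 428 of 1154 B1-type starts (37.1%, against 16.8% of all sites), and below both at 458 of 1234 B2-type starts (37.1%, against 27.4% of all sites). The direction of the B2-type median was kept when any library was left out (-0.71 to -0.0829).

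**Figure D5:**
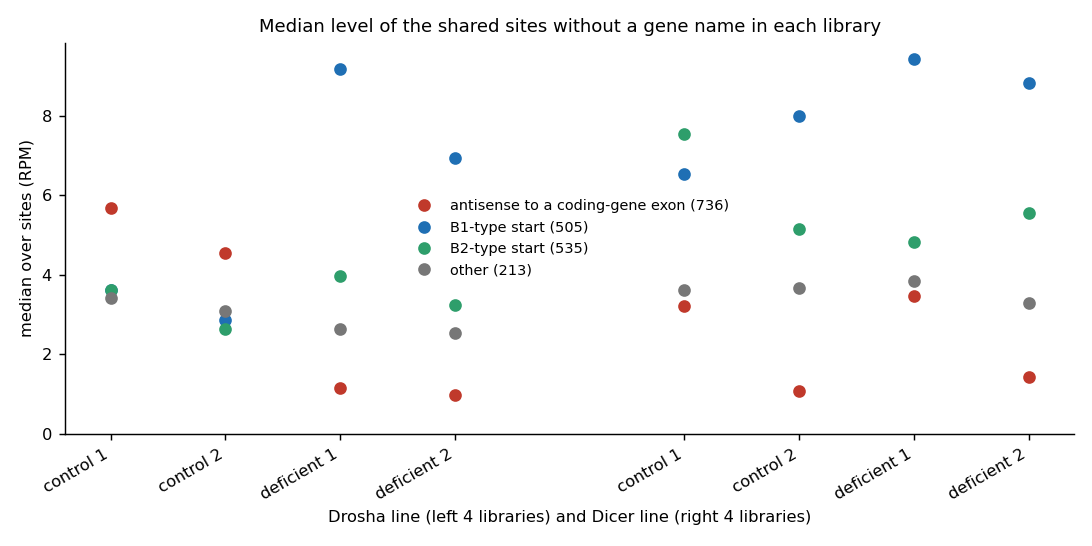
Points give the median RPM (vertical axis) over the sites shared by both tables in each of the 8 libraries (horizontal axis), for 4 classes, with the number of sites in brackets. In the Drosha line antisense and B1-type sites separate control from deficient libraries, and in the Dicer line the antisense medians separate replicate 1 from replicate 2 of both groups.

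The antisense sites differed more between Dicer-line libraries of the same group than between the groups. At the 736 antisense sites in both tables the median was 3.23 RPM in Dicer control replicate 1 and 1.08 RPM in replicate 2, and 3.48 and 1.44 RPM after Dicer loss. In the Drosha line the same sites had medians of 5.68 and 4.55 RPM in the controls and 1.16 and 0.973 RPM in the deficient libraries. The median change of the class in the Dicer comparison accordingly ran from -0.63 without Dicer control replicate 2 to 0.85 without Dicer control replicate 1. The Psmc3 site had 1143 and 341 RPM in the Dicer controls and 704 and 280 RPM in the deficient libraries, groups that overlap. What set these libraries apart was not tested. The B1-type starts in both tables had medians of 3.63 and 2.87 RPM in the Drosha controls, 9.19 and 6.95 RPM after Drosha loss, 6.54 and 8.01 RPM in the Dicer controls and 9.43 and 8.83 RPM after Dicer loss, so that the Drosha controls were lowest. The B2-type medians were 3.63, 2.63, 3.97 and 3.23 RPM in the Drosha line and 7.55, 5.16, 4.83 and 5.56 RPM in the Dicer line.

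Among members whose groups did not overlap, the largest decreases in the Dicer comparison, none of which passed the test, lay in introns of Brwd1, a bromodomain gene, and of Zfp42, the stem cell marker Rex1, and at a B1-type start 1137 bases from Gm27511. The Brwd1 site had 4.28 and 1.72 RPM in the controls and 1.05 and 0.183 RPM in the deficient libraries (log2 fold change -2.31, SE 0.82, FDR = 0.47). The Zfp42 site had 5.12 and 1.25 RPM against 0.574 and 0.336 RPM (-2.29, SE 0.75). The B1-type start had 13.8 and 11.7 RPM against 2.30 and 3.02 RPM (-2.23, SE 0.36, FDR = 0.465), the tightest of these groups. The largest increases of this kind, also not called, were at antisense sites opposite Obsl1, a cytoskeletal adaptor gene, with 11.9 and 2.39 RPM against 58.1 and 19.7 RPM (2.64, SE 0.83), Ubr4, a ubiquitin ligase gene (2.59, SE 1.09), and Trir (2.55, SE 1.06).

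The deepest Dicer-table member also lay in nuclear sequence copied from the mitochondrial genome, on the minus strand of chromosome 1 at position 24615566. The mt-Atp8 copy starts on the same strand at position 24614812. The first base of the deepest member matches the base 1 before mt-Co2, at mitochondrial position 7012. This deepest member had 129012 and 145150 RPM in the Dicer controls and 104247 and 121567 RPM in the deficient libraries (log2 fold change -0.28, SE 0.41). It was not in the Drosha table, and is the largest of the 10 sites that held 77.4%, 81.1%, 73.2% and 75.9% of the RPM at members in the 4 libraries. The mt-Atp8 copy had 33172 and 36328 RPM against 18607 and 15657 RPM (-1.02, SE 0.36, FDR = 0.469), the 18S rRNA start 15469 and 7043 RPM against 6429 and 4681 RPM (-0.93, SE 0.47), and a site 1783 bases from Gm28000 had 5347 and 2689 RPM against 3378 and 1678 RPM (-0.67, SE 0.50). None of the 4 passed the test.

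The difference between the Drosha and Dicer effects was tested with an interaction term over the 2595 sites in both tables. Of the 2104 shared members 22 had a lower and 78 a higher Drosha than Dicer effect at an FDR under 0.05, against 1.7% and 3.08% of all shared sites. The lower effect was called at 15 of 736 antisense sites (2.04%), near the share over all shared sites, and at 22 of 491 sites with a gene name (4.48%). That share depended on the scale. With each library centred the lower effect was called at 93 antisense sites (12.6%, against 4.74% of all shared sites) and the higher effect at 0. The higher effect was called at 57 of 505 B1-type starts (11.3%) and at 10 of 535 B2-type starts (1.87%). The median difference was -2.43 for the antisense sites, 0.89 for the B1-type and 0.30 for the B2-type starts. These calls rest on all 8 libraries: leaving out any Drosha-line library or Dicer-deficient replicate 1 left 0 calls in both directions, leaving out Dicer control replicate 2 left 2 and 22, and leaving out Dicer control replicate 1 or Dicer-deficient replicate 2 raised them to 641 and 231, and to 386 and 83. The overlap of the tables was 66.9% of the Drosha-table and 55.1% of the Dicer-table members, and 92.3% of the antisense sites of the Dicer table but 43.8% of its B1-type starts were also in the Drosha table.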

How the data were processed

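Degradome-seq libraries of control and deficient ESCs, 2 in each of 4 groups, were analysed. The authors trimmed reads with Trimmomatic 0.38.0, aligned them to GRCm38 with STAR at default parameters, counted reads that start at each position, and deposited the reads scaled to mapped reads (RPM). RPM times the study's mapped reads gave whole reads at 100% of sites (tolerance 0.01 reads). The authors' fold change, p and FDR columns were not used. The deposited RNA-seq table gave mean log2 CPM for the marker check and for the genes opposite antisense sites.

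Sites were annotated with GENCODE vM21 and the GRCm38 sequence from RefSeq. In order, a member was put at a small RNA gene (same strand, from 50 bases before to 30 after), a B1-type or B2-type start (exact letters first, then 1 mismatch, B1 before B2), antisense to a coding exon, other repeat-masked (at least 50% of the first 30 bases), or other. log2(RPM + 0.1) was fitted over each whole table with limma 3.58.1 (R 4.3.3, mean-variance trend, Benjamini-Hochberg). An alternative was edgeR 4.0.16 with the mapped reads as library sizes, without the TMM scaling that the study used. On simulated data limma recovered 199 of 200 changed sites among 3919 (Drosha, 0 false calls) and 200 of 200 among 4666 (Dicer, 2 false calls). These counts only check that the fit runs as intended. The size of change that the Dicer comparison could find at the spread between its own libraries was not tested. Sites named were, among those whose groups do not overlap, the 8 largest called changes in each direction and the 3 largest changes with a mean of at least 10 reads, then the 5 deepest of each table and the 8 largest interaction effects in each direction whose per-library Drosha and Dicer effects do not overlap; the deepest of each class were added after seeing values. The members and the lists were chosen with earlier results of these data known. Alternatives were other pseudocounts, filters, scalings, library sizes and thresholds, a replicate block, single libraries left out, and subsets of members. Sequences are from GRCm38. Some sites and sequences are not reported here.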

Additional observations from a re-analysis of the deposited data

Results flagged for a closer look

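With 2 libraries in a group no library could be tested as an outlier. The results below are those in which the effect of Drosha loss and that of Dicer loss differed by the interaction term of limma at an FDR under 0.05. Among the shared members 22 had a lower and 78 a higher Drosha effect. The lower ones were 15 antisense sites, 6 other sites and 1 B1-type start, and the higher ones 57 B1-type starts, 10 B2-type starts, 8 other repeat-masked sites and 3 other sites. All of the sites named here lost the call when any Drosha-line library or Dicer-deficient replicate 1 was left out, and 9 of the 16 lost it without Dicer control replicate 2.

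The antisense site with the lowest difference lay opposite Rpl36a, a ribosomal protein gene. It had 28.0 and 6.16 RPM in the Drosha controls and 1.03 and 0.591 RPM in the Drosha-deficient libraries, but 5.04 and 1.31 RPM in the Dicer controls and 10.8 and 3.54 RPM after Dicer loss (Drosha minus Dicer effect -5.13 on the log2 scale, SE 1.21, FDR = 0.0487). The Dicer groups overlap there. For the site opposite Obsl1 the difference was -4.53 (SE 1.05). The site opposite Snx18, a sorting nexin gene, had 17.5 and 7.60 RPM against 2.71 and 2.92 RPM in the Drosha line and 2.37 and 1.08 RPM against 13.5 and 4.03 RPM in the Dicer line, and both pairs of groups were separate (difference -4.14, SE 0.90). Differences were -4.09 opposite Srebf2, a regulator of sterol synthesis, -3.88 opposite Eif4ebp1, an inhibitor of cap-dependent translation, and -3.44 opposite Ezr, a linker of membrane and actin. The site opposite Cenpt, a centromere protein gene, had 13.8 and 10.4 RPM against 3.68 and 3.06 RPM in the Drosha line and 1.69 and 3.97 RPM against 8 and 12.6 RPM in the Dicer line (difference -3.72, SE 0.64, FDR = 0.0244). A site opposite an exon of the noncoding gene 2410006H16Rik, the host gene of Snord49a, differed by -3.84 (SE 0.84).

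The highest difference, 4.00 (SE 0.46, FDR = 0.0218), was at a B2-type start at position 48026700 of chromosome 18, in an intron of AC150274.2. It had 1.29 and 1.54 RPM in the Drosha controls, 15.8 and 14.2 RPM after Drosha loss, 7.29 and 8.68 RPM in the Dicer controls and 4.39 and 5.56 RPM after Dicer loss. The B2-type start in Sptan1 differed by 3.77 (SE 0.78). The B1-type start in an intron of Adgrg4, an adhesion receptor gene, had 5.93 and 4.04 RPM against 68.8 and 40.6 RPM in the Drosha line and 18.2 and 33.7 RPM against 20.5 and 19.3 RPM in the Dicer line (difference 3.72, SE 0.58). At 6087 bases from Pde4a, a repeat-masked site had 7.11 and 4.41 RPM against 68.6 and 50.5 RPM and, in the Dicer line, 33.3 and 38.4 RPM against 29.2 and 32.0 RPM (difference 3.60, SE 0.47). The Pde4a site also holds the letters gcctttaa of the printed B1-type start. B1-type starts near Ipo8 and Ccnt2, in an intron of Gpatch1 and 14324 bases from AC113075.1 differed by 3.55, 3.50, 3.50 and 3.32. At each start in this paragraph with values given, the Drosha controls were the lowest of the 4 groups.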

How the results depend on the processing

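Centring each library on its median site brought the Drosha counts to 766 decreased and 562 increased members (median -0.32). It gave 698 decreased antisense sites (median -1.54) and 385 increased B1-type starts (median 1.77). The B2-type median turned to 0.45, and the deep B2-type starts at chr13:97616824 and chr19:46227090 turned to 0.19 and 0.0942. The centred interaction gave 97 lower and 274 higher members (4.61% and 13.0%, against 4.74% and 11.1% of all shared sites). A pseudocount of 0.5 RPM gave 813 decreased members (median -0.71) and 737 decreased antisense sites (median -1.56), and one of 1 RPM, added later, 463 (median -0.57) and 424 (median -1.21). Library sizes from uniquely mapped reads gave medians of -1.18 for members, -2.46 for antisense sites and, in the Dicer line, 0.0577 for B1-type starts. Among the 1958 members whose first 30 bases occur once, 1161 were decreased and 109 increased (median -1.80), and among the 719 with no annotated gene on either strand 14 and 171 (median 0.32). Of alternatives added after seeing the data, the deepest site for each first 30 bases gave a median of -1.24, leaving out linker-like sites 308 decreased members (median -0.0882), and leaving out repeat-masked sites 1127 decreased and 14 increased (median -1.97). The cause of these differences was not tested beyond the change of members or scale.

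With 1 library left out, decreased members ranged from 766 to 1277, increased members from 254 to 436 and their median from -1.06 to -0.75. Antisense decreases ranged from 684 to 1129 (median -2.31 to -1.99), B1-type increases from 178 to 301 (median 0.96 to 1.39) and B2-type increases from 44 to 94 (median -0.38 to 0.10). In the Dicer line members decreased stayed at 0 and increased ranged from 0 to 12; medians ranged from -0.31 to 0.0438 for members, from -0.63 to 0.85 for antisense sites, from 0.0354 to 0.37 for B1-type and from -0.71 to -0.0829 for B2-type starts. Interaction counts ranged from 0 to 641 lower and from 0 to 231 higher. Of the 45 named sites called in the Drosha comparison, 2 were lost without Drosha control replicate 1 and 2 without Drosha-deficient replicate 1.

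The replicate numbers give 2 pairs in each line and no source ties same-numbered libraries. Their deviations from the group means correlated at 0.13 across sites in the Drosha line and 0.53 in the Dicer line. With the replicate block the Drosha comparison gave 1242 decreased and 362 increased members, and the Dicer comparison 46 decreased and 105 increased members. These Dicer counts have no share over all sites beside them and are not read as particular to members. The interaction with the block gave 789 lower and 368 higher members (37.5% and 17.5%), near the 36.0% and 14.9% of all shared sites. The lower ones held 684 of the 736 shared antisense sites (92.9%, against 36.0% of all shared sites), and the higher ones held 1. Precision is limited by 2 libraries in each group and, at sites under 1 RPM, by few reads.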
